A study of Arabidopsis thaliana with 12 samples.

Results

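Transcript signals of 4 Arabidopsis thaliana loci, AT3G58450, AT5G66780, AT3G60730 and AT5G07330, were followed over 12 ATH1 arrays of whole seedlings. The loci were picked for their measured signals, which were low in 3 groups and high in seedlings that expressed FUSCA3 (FUS3) on medium with sucrose. The probe table gives 1 probe set to each locus, so they are 4 of the 22746 probe sets tested. Because this pattern chose them, their values are described without a test. The 4 groups were wild type (WT) and the line ESTpro:FUS3-strong 2-8, called FUS3 here, each grown without sucrose or with 1.5% sucrose. Line 2-8 is a single line that carries FUS3 behind an estradiol-inducible promoter. Estradiol at 5 µM is recorded in the labels for line 2-8, and the design text has both lines under inducing conditions. Whether the WT seedlings were given estradiol therefore cannot be read from these sources. All seedlings were 8 days old, and total RNA of 3 biological replicates per group was hybridised, 1 array each.

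Together with LEC1, LEC2 and ABI3, the B3-domain transcription factor FUS3 drives seed maturation, when embryos store protein and oil and become tolerant of drying. Sucrose is both a carbon source for such stores and a signal that alters transcription. FUS3 itself is not among the genes that the probe table names and was not analysed here. The study asked how FUS3 and sucrose act together in seedlings that make oil. The reference table lists the 4 loci as protein coding and gives none of them a symbol. From general knowledge of the families, AT5G66780 stands on a list of late embryogenesis abundant (LEA) proteins, hydrophilic proteins that accumulate in drying seeds. AT3G60730 stands on a list of pectin methylesterases, enzymes that remove methyl groups from cell wall pectin, and AT3G58450 on a list of proteins with a universal stress protein domain. AT5G07330 is on no list, and no role is given to it here.

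In the TAIR10.1 annotation AT3G58450 lies on chromosome 3 at 21621994 to 21623166 and AT3G60730 on the same chromosome at 22444890 to 22447273. AT5G07330 lies on chromosome 5 at 2315947 to 2316874 and AT5G66780 on chromosome 5 at 26663500 to 26664436. Each locus was read by 1 probe set, and these are positions of the whole gene, since the probes' own places within it were not used here.

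Signals are linear and were scaled by the authors so that arrays share a trimmed mean. Array medians lay between 374.6 and 442.4. As a guide to the lowest signals, control probe sets for a bacterial tryptophan operon gave 36 values between 0.552 and 43.4 with a median of 5.70. Signals depend on the probes, so levels of different probe sets are not compared as amounts of transcript. In RNA from whole seedlings, more cells that hold a transcript and more transcript per cell cannot be told apart.

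AT3G58450 was high in FUS3 with sucrose and near background elsewhere. In WT without sucrose its signal was 3.57, 6.73 and 13.8 in replicates 1 to 3, and in WT with sucrose it was 9.20, 4.36 and 7.53. In FUS3 without sucrose it was 6.10, 6.38 and 18.0, and in FUS3 with sucrose 2704.5, 3683.8 and 2968.6. All 9 arrays of the first 3 groups overlapped and lay within the range of the bacterial control values. The means were 8.02 ± 5.22, 7.03 ± 2.46, 10.2 ± 6.82 and 3119 ± 507 (SD, n = 3 in each group). The lowest array of FUS3 with sucrose was 62.3 times the highest bacterial control value, 43.4. A fold against the other 9 arrays is not measured beyond that, since they were not above those controls. On those 9 arrays the probe set ranked between the 4.6 and 12.4 percentiles of all signals, and with both FUS3 and sucrose between the 89.0 and 92.1 percentiles.

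AT3G60730 was also low in 3 groups, with some spread among them. WT without sucrose gave 36.5, 3.89 and 2.60, and WT with sucrose 4.30, 9.66 and 3.07. FUS3 without sucrose gave 18.2, 56.1 and 64.5, and FUS3 with sucrose 2895.9, 3321.5 and 2641.5. Replicates 2 and 3 of FUS3 without sucrose lay above all 6 WT arrays. Replicate 1 lay below replicate 1 of WT without sucrose, so those 2 groups overlapped. The means were 14.3 ± 19.2, 5.68 ± 3.50, 46.3 ± 24.6 and 2953 ± 344 (SD, n = 3), and the lowest array of the high group was 41.0 times the highest of the others. Of those others, 7 lay within the range of the bacterial controls, and replicates 2 and 3 of FUS3 without sucrose lay above it.

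AT5G66780 was not at the same low level in the other groups. Its signal was 1.41, 3.21 and 6.18 in WT without sucrose and 47.6, 30.3 and 15.1 in WT with sucrose. It was 207.0, 239.8 and 302.0 in FUS3 without sucrose and 13181.7, 16161.3 and 15314.8 in FUS3 with sucrose. No neighbouring groups overlapped in this order, from WT without sucrose through WT with sucrose and FUS3 without sucrose to FUS3 with sucrose. The means were 3.60 ± 2.41, 31.0 ± 16.3, 249.6 ± 48.2 and 14886 ± 1535 (SD, n = 3). Of the 6 WT arrays 5 lay within the range of the bacterial controls, so the order of the WT groups is one of signals near background. FUS3 without sucrose reached 1.68% of the mean with sucrose, above every WT array. The lowest array with both factors was 43.7 times the highest other array.

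AT5G07330 stood near the middle of all signals in FUS3 without sucrose. WT without sucrose gave 96.6, 112.1 and 55.6, and WT with sucrose 61.7, 41.0 and 2.83. FUS3 without sucrose gave 469.6, 482.4 and 512.7, and FUS3 with sucrose 10456.8, 14898.3 and 13499.6. The WT groups overlapped, and every array of FUS3 without sucrose lay above all 6 WT arrays. The means were 88.1 ± 29.2, 35.2 ± 29.9, 488 ± 22.2 and 12952 ± 2271 (SD, n = 3). FUS3 without sucrose stood at 3.77% of the mean with sucrose, between the 53.6 and 56.0 percentiles of its arrays. The lowest array with both factors was 20.4 times the highest other array.

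**Figure D1:**
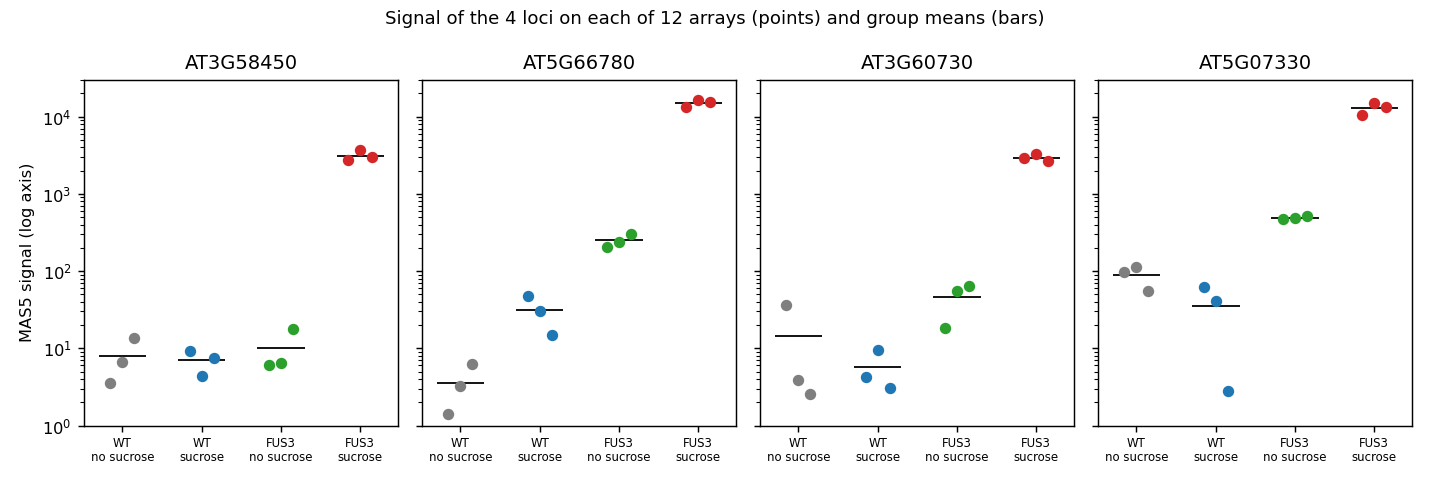
Signal of the 4 loci on each of the 12 arrays, on a log axis, 1 panel per locus, with the arrays grouped by line and sucrose. In every panel the 3 arrays of FUS3 with sucrose stand far above the other 9; AT5G66780 and AT5G07330 also stand above WT in FUS3 without sucrose, with means of 249.6 and 488.

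The 4 loci thus differed in their levels outside the high group, and a need for both FUS3 and sucrose is not what every level shows. For AT3G58450 no group but FUS3 with sucrose stood apart. For AT5G66780 and AT5G07330 FUS3 without sucrose stood apart from WT too, at a small share of the final level. That the high group stands above the rest is common on these arrays. In 3869 probe sets, 17.0%, the lowest array of FUS3 with sucrose lay above all 9 others. A ratio of at least 20.4, the smallest of the 4 loci, was found in 54 probe sets, 0.237%. The 4 loci were chosen for this, so their place among the 54 is not a result.

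On the log2 scale, after 16 was added to each signal, FUS3 differed from WT without sucrose by 0.12 (SE 0.24) for AT3G58450 and 1.12 (SE 0.38) for AT3G60730. The same difference was 3.75 (SE 0.23) for AT5G66780 and 2.32 (SE 0.38) for AT5G07330. With sucrose the difference between the lines was 7.08, 7.10, 8.36 and 8.20 in the same order of loci. The differences between the lines ranged from 0.12 to 3.75 without sucrose and from 7.08 to 8.36 with it. Since the loci were picked for their level with both factors, nothing is read from these ranges. Where WT signals lay near background, the sizes also depend on the amount added.

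Sucrose against none in WT gave log2 differences of -0.04 (SE 0.24) for AT3G58450, -0.32 (SE 0.38) for AT3G60730, 1.21 (SE 0.23) for AT5G66780 and -1.21 (SE 0.38) for AT5G07330. Most WT signals of the first 3 loci lay within the range of the bacterial controls, and for AT5G07330 the WT groups overlapped, so no direction is read from these differences. In FUS3 the difference made by sucrose was 6.92 (SE 0.24), 5.66 (SE 0.38), 5.82 (SE 0.23) and 4.67 (SE 0.38) in that order. The interaction, which is the sucrose difference in FUS3 minus that in WT, was 6.97 (SE 0.34), 5.99 (SE 0.54), 4.61 (SE 0.32) and 5.88 (SE 0.54).

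**Figure D2:**
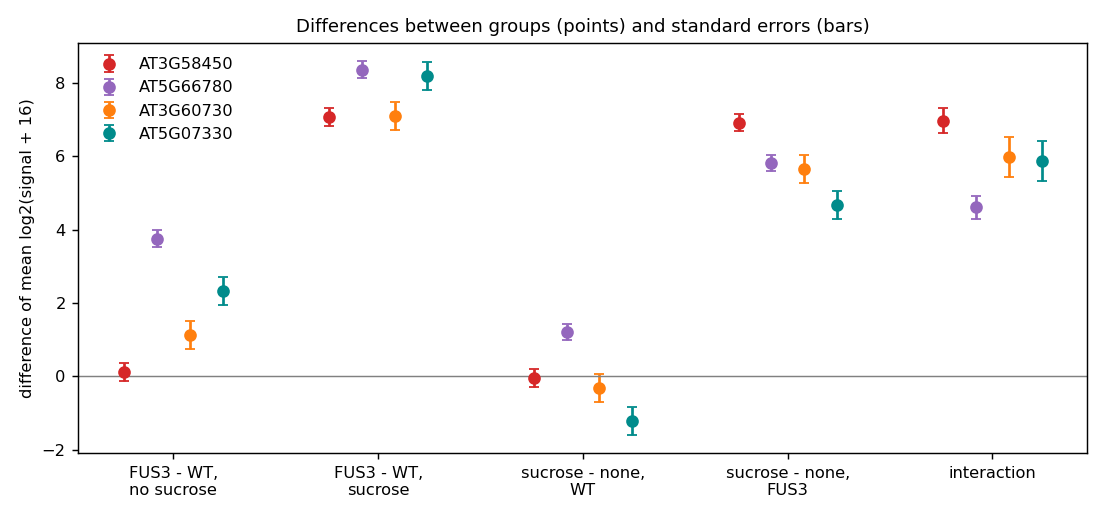
Log2 differences of the 4 loci in 5 comparisons, on the scale of log2(signal + 16), with bars of 1 SE from the fit. Differences between the lines range from 0.12 to 3.75 without sucrose and from 7.08 to 8.36 with sucrose. The loci were chosen for their pattern, so these ranges are not a result.

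On the linear scale, the single effects were added to the WT level without sucrose, and the sum was set beside the level seen with both. It came to 9.18 for AT3G58450, which is 0.294% of the mean in FUS3 with sucrose. The sum was 1.27% of that mean for AT3G60730, 1.86% for AT5G66780 and 3.36% for AT5G07330. For AT3G58450 every mean in the sum lay within the range of the bacterial controls. For AT3G60730 and AT5G66780 both WT means did, and for AT5G07330 that of WT with sucrose. The shares are therefore not exact. The mean of FUS3 with sucrose was 59.6 times that without for AT5G66780 and 26.5 times for AT5G07330, both above the bacterial controls on every FUS3 array.

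The gap from the mean of FUS3 with sucrose to the next highest group mean was 6.92 on the log2 scale for AT3G58450, 5.82 for AT5G66780, 5.66 for AT3G60730 and 4.67 for AT5G07330. The median gap of all probe sets was -0.15, and since the loci were picked for this pattern nothing is read from their distance to it. The gap depends on the amount added for probe sets near background. For AT3G58450 it was 8.27 with 1 added and 5.42 with 64 added.

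Within FUS3 with sucrose, replicate 2 was the highest array for all 4 loci. Its signal was 1.36 times the lowest replicate for AT3G58450, 1.23 times for AT5G66780, 1.26 times for AT3G60730 and 1.42 times for AT5G07330. Over all probe sets replicate 2 was the highest of the 3 in 34.73%. The replicates thus differ far less than the groups do.

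Some other measurements moved with FUS3 plus sucrose and some did not, and their part in the values above was not tested. The 25S rRNA control probe set stood at 9915.5 ± 701 in FUS3 with sucrose, against 2491 ± 455 in WT without sucrose, 3491 ± 1023 in WT with sucrose and 2088.5 ± 478 in FUS3 without sucrose (SD, n = 3). The ratios of 3′ to 5′ control probe sets had group means of 2.93 to 3.35 for actin, 0.866 to 0.997 for GAPDH and 1.29 to 1.44 for ubiquitin. The highest mean was that of FUS3 without sucrose for actin and ubiquitin, and of FUS3 with sucrose for GAPDH. Of 8 leaf and root markers 6 were measured, and none was at 0. The summed signal of the 2 leaf markers, RCA for Rubisco activase and LHCB4.1 for an antenna protein of photosystem II, was 44122 to 45399 in FUS3 with sucrose and 72638 to 86838 on the other 9 arrays. The summed signal of the 4 root markers was 2143 to 2674 in FUS3 with sucrose, 1161 to 1575 in WT without sucrose, 2166 to 2647 in WT with sucrose and 1524 to 2163 in FUS3 without sucrose. In FUS3 with sucrose against WT with sucrose, 3 of the 6 markers rose (EXPA7, EXPA18 and AT5G66390) and 3 fell (RCA, LHCB4.1 and AT5G58390). Of all probe sets 18.9% were higher and 19.6% lower. The summed root signal hides opposite moves in this comparison. The log2 difference was -4.57 for AT5G58390, against 1.05 for AT5G66390, 0.88 for EXPA7 and 0.57 for EXPA18.

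The same pattern was sought in the rest of the array. It was taken as a mean of at most 488.2 in each of the 3 other groups and at least 2953 in FUS3 with sucrose, the bounds that the 4 loci set. In all 53 probe sets lay within these bounds, 0.233% of those tested. The other 49 comprised 25 with 1 named gene and 24 without a gene name. Their gaps ran from 2.87 to 7.79 with a median of 4.72, and their mean with sucrose was a median of 28.6 times that without it in FUS3. These bounds act on signals whose scale differs between probe sets, so the set is a description of this array.

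Of the 25 named genes 7 were on the LEA list. That list had 35 measured genes, beside 13432 probe sets matched to 1 gene other than the 4 loci. The 25 entered through their level in FUS3 with sucrose, so the count is a description and not a test. AT3G53040, of that list, had a gap of 6.33, with group means of 31.1 in WT without sucrose, 26.0 in WT with sucrose, 73.8 in FUS3 without sucrose and 6791 in FUS3 with sucrose. Others of the list were LEA18 with a gap of 5.39, LEA4-5 with 5.20, AT4G21020 with 4.79, AT5G44310 with 4.61, AtLEA4-1 with 4.47 and AT2G23110 with 4.15. Outside the list the largest gap was that of AT2G05580, 5.75, with means of 27.6, 44.9, 215.9 and 12272.5 in the same order of groups. AT1G03890 followed at 5.43, with means of 4.57, 4.41, 421.9 and 18740.2.

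The remaining named genes taken by the rule had gaps of 4.48 to 5.33. AT2G25890 had a gap of 5.33, AT3G56350 of 5.15, AT5G45690 of 5.13, AT2G21820 of 5.12 and AT3G05260 of 5.05. Gaps of 4.48 to 4.90 were those of AT1G02700, AT5G59170, AT3G19920, AT1G27461, AT4G31830, AT3G15280, AT1G27990 and AT3G18570. Smaller gaps, past the limit of the rule, were 4.01 for AT2G33520, 3.73 for AT2G47780 and 3.28 for AT5G62800. The table gives these loci no symbol.

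All arrays of FUS3 without sucrose lay above all 6 WT arrays, as for AT5G66780 and AT5G07330, in 41 of the 49 others and not in 8. Arrays of FUS3 without sucrose and of WT without sucrose overlapped, as for AT3G58450 and AT3G60730, in 5 of the 49 and did not in 44. The 5 were AT3G53040, AT5G59170 and AT1G27990 and 2 probe sets without a gene name. How many of all tested probe sets show either order was not counted, so no result is read from these counts. Replicate 2 was the highest array of FUS3 with sucrose in 44 of the whole 53, beside 34.73% of all probe sets.

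**Figure D3:**
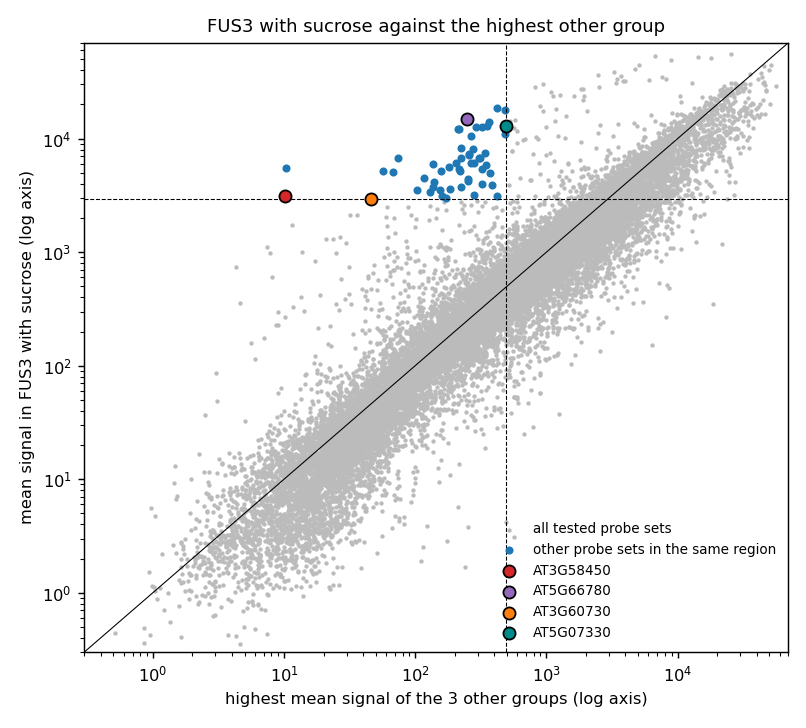
Highest group mean outside FUS3 with sucrose (horizontal) against the mean in FUS3 with sucrose (vertical) for all tested probe sets, both axes logarithmic signals. The 4 loci are marked and bound the corner that holds 53 probe sets, with means of at most 488.2 and at least 2953.

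Over the 12 arrays the log2 signals of the 4 loci were correlated with each other at Pearson's r of 0.908 to 0.970 and Spearman's rho of 0.476 to 0.895. All pairs share the same 12 arrays, 3 of them far above the rest, and rho also weighs the order among the 9 low ones. The pair AT3G58450 and AT3G60730 had the highest r, 0.970, and the lowest rho, 0.476. A median r of at least 0.908 to the 4 loci was found in 630 probe sets, 2.77%. The 4 loci were chosen for a shared pattern, so a high r among them follows from the choice. Their r, and that of the genes most like them, is therefore only a description.

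The 10 probe sets of 1 gene with the highest median r to the 4 loci had values from 0.974 to 0.980. PDF2.1, a plant defensin, had a median r of 0.980 with group means of 945.1, 1027, 1945 and 23607, from WT without sucrose and WT with sucrose to FUS3 without sucrose and FUS3 with sucrose. AGL67, a MADS-box transcription factor, had a median r of 0.978 with means of 3.50, 1.68, 60.5 and 1693 in that order. PDF2.1 stood above the array medians in all 4 groups, and AGL67 in FUS3 with sucrose but not in the other 3.

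The other 8 were AT5G55750, AT2G42560, AT1G33790, AT2G21820, AT3G19920, AtLEA4-1, AT5G44360 and AT2G33520. Of the 10, 4 also met the bounds above and 2, AT2G42560 and AtLEA4-1, were on the LEA list. With Spearman's rho in place of r only 2 of the 10 were kept, AtLEA4-1 and AT5G44360.

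The families of the loci were then compared in the same fit, without the 4 loci themselves. Of 52 loci on the LEA list 35 others were measured. The interaction was positive in 22 of the 35 and negative in 2 at an adjusted p under 0.05, beside 9.78% higher and 13.3% lower of all probe sets, with a list median of 3.13 against -0.01. In FUS3 against WT with sucrose 24 rose and 5 fell, beside 18.9% and 19.6% of all probe sets, with a median of 5.46 against 0.01. The 2 with a negative interaction were COR15B and AT4G38410, and with COR47, AT1G54410 and AT2G44060 they were the 5 that fell between the lines with sucrose. COR15B and COR47 are known as cold-responsive genes.

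Without sucrose 15 of the 35 LEA genes rose in FUS3 against WT and COR47 fell by 0.36, beside 9.50% higher and 7.03% lower of all probe sets. The median was 0.90, against 0.02 over all probe sets. Sucrose raised 26 and lowered COR47 and AT1G54410 in FUS3, beside 21.8% and 17.5%. In WT 7 rose with sucrose and COR47 fell, beside 15.9% and 10.1%. The gap of AT5G66780, 5.82, compares with a median of 3.85 over the 35, of which AT3G53040 alone had a larger one. Since AT5G66780 was chosen for its pattern, its place on the list is not a result.

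M17, a LEA gene, was, like AT3G58450, within the range of the bacterial controls in 3 groups. Its signal was 6.60 ± 4.15 in WT without sucrose, 5.36 ± 3.53 in WT with sucrose, 7.86 ± 6.33 in FUS3 without sucrose and 974.6 ± 65.7 in FUS3 with sucrose (SD, n = 3). Its arrays overlapped in the first 3 groups. Its interaction was 5.49 (SE 0.35, adjusted p = 1.23e-07), and without sucrose the lines differed by 0.06 (SE 0.25, adjusted p = 0.918). LEA itself, AT2G21490, a dehydrin, had an interaction of 4.55 (SE 0.22, adjusted p = 1.90e-08) and was higher in FUS3 already without sucrose, by 3.43 (SE 0.15, adjusted p = 2.65e-09). AT4G21020 had an interaction of 4.89 (adjusted p = 2.54e-08) and AtLEA4-1 of 4.35 (adjusted p = 1.23e-07). Leaving out the 40% of probe sets with the lowest mean, and with them part of this list, gave 12 LEA genes called in the interaction instead of 24, and 17 instead of 29 in FUS3 against WT with sucrose.

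The pectin methylesterases did not share the pattern of AT3G60730 at its size. Of 65 loci listed 42 others were measured, with an interaction from -1.82 to 2.06, against 5.99 for AT3G60730, which was chosen for its pattern. The interaction was positive for AT5G49180 alone, at 2.06 (SE 0.38, adjusted p = 0.00111), and negative for 7, beside 9.78% and 13.3% of all probe sets. The list median was -0.25. AT5G49180 stood at 17.1 ± 7.69, 17.8 ± 3.10 and 8.47 ± 8.36 in the other groups and at 86.4 ± 8.95 in FUS3 with sucrose (SD, n = 3). The interaction was -1.82 for both AT3G49220 (adjusted p = 8.41e-08) and AT2G47550 (adjusted p = 8.83e-05), and -0.97 for ATPMEPCRB (adjusted p = 0.000807). AT3G49220 fell by 1.35 with sucrose in FUS3 (adjusted p = 9.92e-09) and rose by 0.48 in WT (adjusted p = 0.000418). AT2G47550 and ATPMEPCRB rose with sucrose in WT, by 2.05 (adjusted p = 1.24e-06) and 1.27 (adjusted p = 3.43e-06), and in FUS3 the differences were 0.24 (adjusted p = 0.316) and 0.31 (adjusted p = 0.0561). AT3G49220 was at 1609 ± 111 in FUS3 with sucrose and at 4063 ± 269 to 5660 ± 221 in the other groups.

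Between the lines 8 pectin methylesterases rose and 7 fell with sucrose, beside 18.9% and 19.6% of all probe sets, and 11 rose without it, beside 9.50%. The counts with sucrose are near the share of all probe sets. After the 40% of probe sets with the lowest mean were left out, 9 were called instead of 15 with sucrose and 7 instead of 11 without. None of the 42 had a gap of 4.67 or more, the largest being 1.60 for AT5G49180. In 6 of the 42 all arrays of FUS3 with sucrose lay above the other 9, beside 17.0% of all probe sets.

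The universal stress protein domain list had 26 loci, of which 23 others than AT3G58450 were measured. The interaction was 0.40 for PHOS32 (SE 0.13, adjusted p = 0.0452), -0.43 for AT1G68300 (adjusted p = 0.0131), -0.49 for AT3G62550 (adjusted p = 0.032) and -0.38 for RD2 (adjusted p = 0.0403), 1 positive and 3 negative beside 9.78% and 13.3% of all probe sets. AT1G68300 rose by 0.37 with sucrose in WT (adjusted p = 0.00312), against -0.06 in FUS3 (adjusted p = 0.623). PHOS32 rose by 0.26 with sucrose in FUS3 (adjusted p = 0.0389), and between the lines with sucrose it differed by 0.13 (adjusted p = 0.3). The count of 4 fell to 1 without replicate 1 of FUS3 with sucrose, without replicate 3 of WT without sucrose or without replicate 2 of WT with sucrose. It was 2 without replicate 3 of FUS3 without sucrose, replicate 2 or 3 of FUS3 with sucrose, or replicate 1 or 2 of WT without sucrose. Between the lines with sucrose AT3G53990 rose by 0.42 and 11 fell, beside 18.9% higher and 19.6% lower of all probe sets. The largest gap of this list was 0.34, of AT3G53990, against 6.92 for AT3G58450, which was chosen for its pattern.

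**Figure D4:**
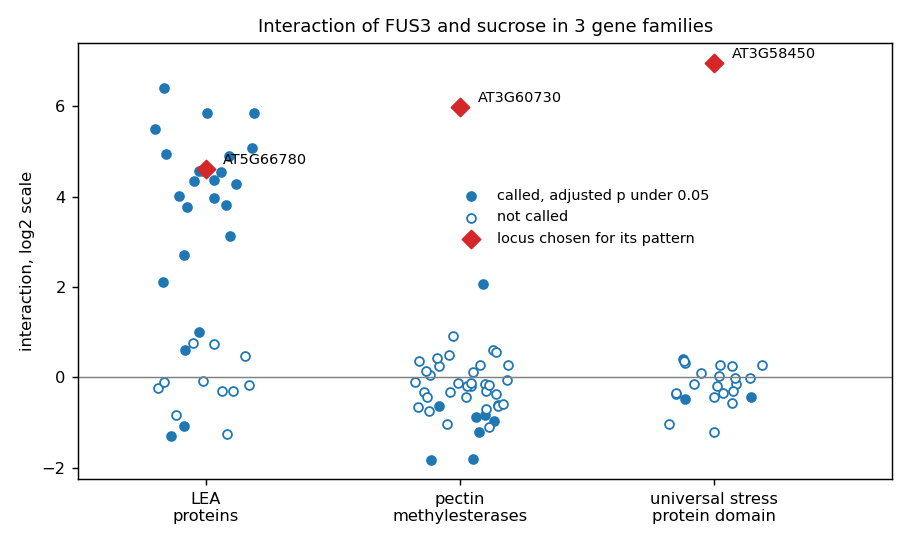
Interaction of FUS3 and sucrose on the log2 scale for the measured genes of 3 families, filled where called at an adjusted p under 0.05, with diamonds for the 3 loci chosen for their pattern. AT5G66780 at 4.61 lies among the LEA genes, whereas AT3G60730 at 5.99 and AT3G58450 at 6.97 lie above all others of their lists, which reach 2.06 and 0.40. Because of how these loci were chosen, their places are not a result.

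Of 21 regulators of seed maturation and genes of abscisic acid signalling on another list, EEL and BZIP53 were measured. EEL, a bZIP transcription factor of seeds, stood at 144.0 ± 24.3, 174.9 ± 17.2, 391.8 ± 42.8 and 2443 ± 167 in WT without sucrose, WT with sucrose, FUS3 without sucrose and FUS3 with sucrose (SD, n = 3). Its interaction was 2.33 (SE 0.19, adjusted p = 1.16e-06), and BZIP53 was not called in any of the 5 comparisons, but was for sucrose in FUS3 once array medians were subtracted. Of 22 loci for iron-sulfur cluster assembly 5 were measured, and the interaction was positive for AT2G16710 and ISU1 and negative for HCF101 and AT5G03905, beside 9.78% and 13.3% of all probe sets. AT2G16710 fell by 0.48 with sucrose in WT (adjusted p = 0.00175), against 0.09 in FUS3 (adjusted p = 0.515).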

How the data were processed

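The authors deposited 1 intensity per probe set and array, MAS5 signals computed with Affymetrix Expression Console per the submitters' processing notes, for which the sources used here give no version. The mean signal, trimmed by 2% at each end, was 1000.08 to 1000.09 on every array. Of 22810 probe sets 64 are controls. From the deposited signals, log2(signal + 16) was fitted as 4 group means in 12 arrays with limma 3.58.1 (R 4.3.3), with a variance trend, with Benjamini-Hochberg adjustment of p-values over 22746 probe sets. SEs are the moderated ones. Figures used matplotlib 3.10.9.

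The probe table gives 1 gene to 13513 probe sets, several to 503, and does not list 8730. Positions come from TAIR10.1, where 13436 matched. A locus with several probe sets was read by the one with the highest mean. Of 194 listed loci, 113 other than the members were measured. The members and the 6 gene lists were chosen with earlier results of these data known.

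Named genes are the 4 loci, up to 25 probe sets of 1 gene within the bounds by gap, the 10 most correlated, and up to 4 called genes of a list by the interaction's adjusted p. Genes named to spell out counts of 5 or fewer, the genes of smallest gap within the bounds, BZIP53 and seedling markers were added after their values were seen. Alternatives were other added amounts, other scaling, a filter, other variance models, a 2-fold minimum, a replicate block and the omission of each array in turn. Applying them to the lists was chosen after seeing the data. The fit was tested on simulated data. Promoter sequences were not analysed here.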

Additional observations from a re-analysis of the deposited data

Results flagged for a closer look

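The effect of sucrose differed between the lines, by the interaction term of limma, for 44 of the 113 measured genes of the lists. Of all probe sets 9.78% were called higher and 13.3% lower in the interaction. The LEA list held 24 of the 44, the pectin methylesterases 8 and the universal stress protein list 4. The 20 genes named by the rule of up to 4 a list follow. Among LEA genes the interaction was 4.55 for LEA (AT2G21490), 4.89 for AT4G21020, 5.49 for M17 and 4.35 for AtLEA4-1. Among pectin methylesterases it was -1.82 for AT3G49220, -1.82 for AT2G47550, -0.97 for ATPMEPCRB and 2.06 for AT5G49180. For universal stress protein genes it was -0.43 for AT1G68300, -0.49 for AT3G62550, -0.38 for RD2 and 0.40 for PHOS32. For iron-sulfur cluster genes it was -0.83 for HCF101 (adjusted p = 2.82e-05), -0.64 for AT5G03905 (adjusted p = 0.00293), 0.57 for AT2G16710 (adjusted p = 0.00683) and 0.45 for ISU1 (adjusted p = 0.0202). EEL had 2.33. Of the seedling markers, AT5G58390 had -4.67 (adjusted p = 1.34e-07), LHCB4.1 -1.12 (adjusted p = 3.85e-06) and RCA -0.53 (adjusted p = 0.00347).

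The 25S rRNA control probe set, outside the tested probe sets, had a mean signal of 9915.5 in FUS3 with sucrose, above the 3 other groups.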

How the results depend on the processing

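The number of called probe sets was 3758 for FUS3 against WT without sucrose, 8761 with sucrose, 5919 for sucrose in WT, 8939 for sucrose in FUS3 and 5253 for the interaction. With a 2-fold minimum these were 672, 2342, 1247, 2352 and 1959, and between the lines with sucrose 7 pectin methylesterases instead of 15 and 1 universal stress protein gene instead of 12 were called. In the interaction the minimum left 4 pectin methylesterases called instead of 8, and 0 instead of 4 on each of the universal stress protein and iron-sulfur lists. Leaving out 1 array gave 2418 to 4018, 7701 to 8863, 4540 to 6016, 7796 to 9133 and 4474 to 5009. The lowest of the first, 2418, came without replicate 1 of WT without sucrose, and the cause was not tested. Apart from these, the 5 totals of called probe sets stayed within 1.5 times, which does not hold for each direction or for every list. Subtracting array medians moved the median of both sucrose comparisons by -0.15, and the calls became 1739 higher and 2091 lower (2160 and 1598 before) for FUS3 without sucrose, 2333 and 4235 (3618 and 2301) for sucrose in WT, and 3257 and 5353 (4967 and 3972) for sucrose in FUS3.

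The gap of AT3G58450 was 8.27 with 1 added and 5.42 with 64 added, and that of AT3G60730 4.79 with 64 added, since a larger amount shrinks differences from low signals. Leaving out 1 array gave gaps of 6.80 to 7.04 for AT3G58450, 5.70 to 5.96 for AT5G66780, 5.28 to 5.90 for AT3G60730 and 4.56 to 4.82 for AT5G07330. No direction reversed.

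The replicate numbers were not taken as pairs: of 18 same-numbered pairs of arrays 1 had a correlation of deviations above 0.1, the range being -0.007 to 0.111, though 10 of 12 arrays correlated best with their own number. With a replicate block the counts were 3974, 8959, 6124, 9132 and 5550, and PHOS32 was lost from the interaction (adjusted p = 0.0591).

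In the interaction AT3G62550 was called with all arrays. In fits with 1 array left out, it stayed called without replicate 1 of FUS3 without sucrose or 3 of FUS3 with sucrose. It also stayed called without replicate 2 of WT without sucrose or 1 of WT with sucrose, and was lost in the other 8. Among the same fits RD2 stayed called only without replicate 1 of FUS3 without sucrose or 1 or 3 of WT with sucrose. PHOS32 stayed called only without replicate 2 of either FUS3 group. Over the lost cases adjusted p was 0.0508 to 0.0792, 0.0557 to 0.096 and 0.0573 to 0.11. ISU1 was lost (0.0504 to 0.0551) without replicate 2 of FUS3 without sucrose, 3 of FUS3 with sucrose, or 1 or 3 of WT without sucrose. Without a variance trend all 4 were lost. Low signals near background, 1 probe set per locus and 3 arrays per group limit these values. Promoter motifs could not be run, for want of sequences here.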

Other observations

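The largest gap of all tested probe sets, 7.79, belonged to a probe set that the probe table gives no gene. Its mean signal was 3.13 in WT without sucrose, 4.39 in WT with sucrose, 10.4 in FUS3 without sucrose and 5470 in FUS3 with sucrose.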
